A study of Rattus norvegicus with 16 samples.

Results

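miR-144 (rno-miR-144), its star strand miR-144* (rno-miR-144*), miR-451 (rno-miR-451) and miR-486 (rno-miR-486) are microRNAs of the red cell lineage. In newborn rat hearts they can serve as a readout of the red cells that a dissected heart still holds. The levels of those found on the array were followed here. The 4 names were looked up among the 677 rat miRNAs of the array by exact match of the miRNA name. Of these, 3 had rows (miR-144, miR-144* and miR-451), while miR-486 had no row by that name and was not analysed here. Each of the 3 was measured by 20 spots on every array, 10 spots for each of 2 probes.

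The hearts came from 2 rat strains, HHR, the Hypertrophic Heart Rat, whose hearts are labelled hypertrophic, and NHR, the Normal Heart Rat, its control strain. Pups were 2 days old, and each strain gave 4 females and 4 males, so that 4 groups of 4 arrays were compared. Every array carried 100 ng of total RNA from 1 heart, labelled with Cy3, and no RNA was pooled. The labels describe the tissue in 2 ways, as the whole heart and as ventricles cut away from the atria, so the amount of atrial tissue is not settled; neither description mentions rinsing or perfusing the heart. The strains differ at many loci, and a strain difference cannot be assigned to heart size.

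miR-144 and miR-451 are made from 1 primary transcript, whose promoter is bound by the erythroid transcription factor GATA-1. miR-451 is an unusual miRNA: Drosha releases its short hairpin, but Argonaute 2 rather than Dicer cuts it, so the mature strand runs from the stem into the loop. Both accumulate as red cell precursors mature, and miR-451 remains abundant in circulating red cells, which have lost their nuclei in mammals. miR-144* is the strand of the miR-144 hairpin opposite to miR-144.

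The mature strands, from RefSeq (assembly GRCr8), are shown because each row of the array reports 1 of them. Capitals mark the seed, bases 2 to 8, which pairs with target RNAs; 3 of the 3 measured names had a mature sequence.
miR-451: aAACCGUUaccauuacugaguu
miR-144: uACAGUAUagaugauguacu
miR-144*: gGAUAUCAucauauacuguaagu
The 3 seeds differ from each other, and none of the 693 mature rat sequences in the table shares a full seed with any of them. The closest are miR-101a and miR-101b, which share bases 2 to 7 with miR-144 and differ from it at the last base of the seed.
miR-101a: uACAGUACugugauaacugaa
miR-101b: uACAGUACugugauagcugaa

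The 2 hairpins lie on the plus strand of chromosome 10 in GRCr8, Mir144 at chr10:63459397-63459479 and Mir451a at chr10:63459569-63459640, with 89 bases between them. No other annotated gene overlapped either hairpin. The pair sits 13585 bases past the end of Flot2 and 133 bases before Eral1. Capitals in the hairpins mark the mature strands, and show that miR-144* precedes miR-144 on its hairpin, while the single strand of Mir451a reaches into the loop.
Mir144: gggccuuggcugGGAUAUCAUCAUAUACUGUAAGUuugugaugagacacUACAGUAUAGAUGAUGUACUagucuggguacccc
Mir451a: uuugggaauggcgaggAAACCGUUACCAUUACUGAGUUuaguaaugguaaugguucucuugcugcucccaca

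Across the arrays, 200 to 239 miRNAs were called detected by the scanner software, 186 were detected on all 16 and 417 on none. Before scaling, the 75th percentile of signal was 417.7 to 525.2 on the 8 HHR arrays, but 294.7 to 326.8 on 5 NHR arrays and 442.7 to 502.9 on the other 3 NHR arrays, so array brightness is unequal between the strains. Levels below are log2 signals scaled to that percentile, and a difference of 1 is a doubling. Of the cardiac muscle markers, 6 of 7 were detected on all 16 arrays, and miR-208 was detected on none. Of the 2 liver miRNAs, miR-122, the defining miRNA of hepatocytes, was detected on no array. The other, miR-192, was detected on 14.

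miR-451 was detected on all 16 arrays and had almost the same mean in both strains. In HHR females its level was 7.70, 7.84, 7.90 and 8.03, in replicate order. In HHR males it was 8.05, 7.41, 7.78 and 7.98. The lowest of all 16 arrays was therefore 1 HHR male, HHR male 2, while the other HHR arrays lay at 7.70 or above. In NHR females it was 8.04, 7.70, 7.76 and 7.83, and in NHR males 7.83, 7.51, 7.58 and 8.16. The highest array was NHR male 4, the strains overlapped over nearly their whole range, and 7 of 8 HHR arrays fell within the NHR range.

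The mean level of miR-451 was 7.84 ± 0.21 (SD, n = 8) in HHR and 7.80 ± 0.22 (SD, n = 8) in NHR. The difference, HHR minus NHR, was 0.037 ± 0.109 (SE) on the log2 scale, with a 95% interval of -0.197 to 0.271, and did not pass the limma test (adjusted p = 0.796). As a fold, that interval runs from 0.872 to 1.21. The difference turned to -0.0038 without HHR male 1 and to -0.0066 without NHR male 2, so no direction can be given. In whole tissue, the number of red cells, the amount of the miRNA per red cell and any amount held by other cells cannot be told apart.

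miR-144, from the other hairpin, was also detected on all 16 arrays and also did not pass the strain test. Its level was 5.13, 5.18, 5.23 and 5.42 in HHR females, and 5.41, 4.87, 5.15 and 5.32 in HHR males. It was 5.46, 5.04, 5.23 and 5.14 in NHR females, and 5.06, 4.74, 4.97 and 5.51 in NHR males. All 8 HHR arrays lay inside the NHR range, which was set at both ends by NHR males. The means were 5.21 ± 0.18 (SD, n = 8) in HHR and 5.14 ± 0.25 (SD, n = 8) in NHR, a difference of 0.069 ± 0.109 (SE) with a 95% interval of -0.165 to 0.302 (limma adjusted p = 0.598).

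miR-144* was dim: it was called detected on 12 of 16 arrays, 7 from HHR and 5 from NHR. Its level was 2.50, 2.27, 2.97 and 2.69 in HHR females, and 2.45, 2.42, 2.55 and 2.70 in HHR males. It was 2.98, 2.69, 2.53 and 2.60 in NHR females, and 2.70, 2.45, 2.62 and 2.95 in NHR males. The strains overlapped, with 5 of 8 HHR arrays inside the NHR range and the other 3 below it. The difference was -0.121 ± 0.103 (SE), with a 95% interval of -0.342 to 0.099 (limma adjusted p = 0.317). It was positive under all 5 other scalings between arrays, at most 0.218 and without a call.

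None of the 3 miRNAs passed the strain test, 0 of 3, while 127 of all 233 tested miRNAs did (54.5%). This contrast does not show that the 3 are spared. miR-451 and miR-144 followed each other (r = 0.947, below), so they are not separate counts. The SE was 0.109 for both and 0.103 for miR-144*. miR-16 was called at -0.106 with an SE of 0.028, and a difference of that size is too small to be called for the 3. Of those 127 calls, 21 were higher and 106 lower in HHR. This split depends on the processing: after normexp background correction 2 were called higher and 163 lower. With quantile normalization 57 were called higher and 45 lower. With a percentile taken over all probes 134 were higher and 21 lower, and with median centring 54 higher and 33 lower. The median difference of all tested miRNAs was -0.11, and relative to it miR-451 lay at 0.14, miR-144 at 0.17 and miR-144* at -0.015. With the percentile taken over all probes, which moved the median of all tested miRNAs to 0.17, miR-451 (0.317, adjusted p = 0.0278) and miR-144 (0.349, adjusted p = 0.0195) were called higher in HHR by limma, as were most tested miRNAs.

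**Figure D1:**
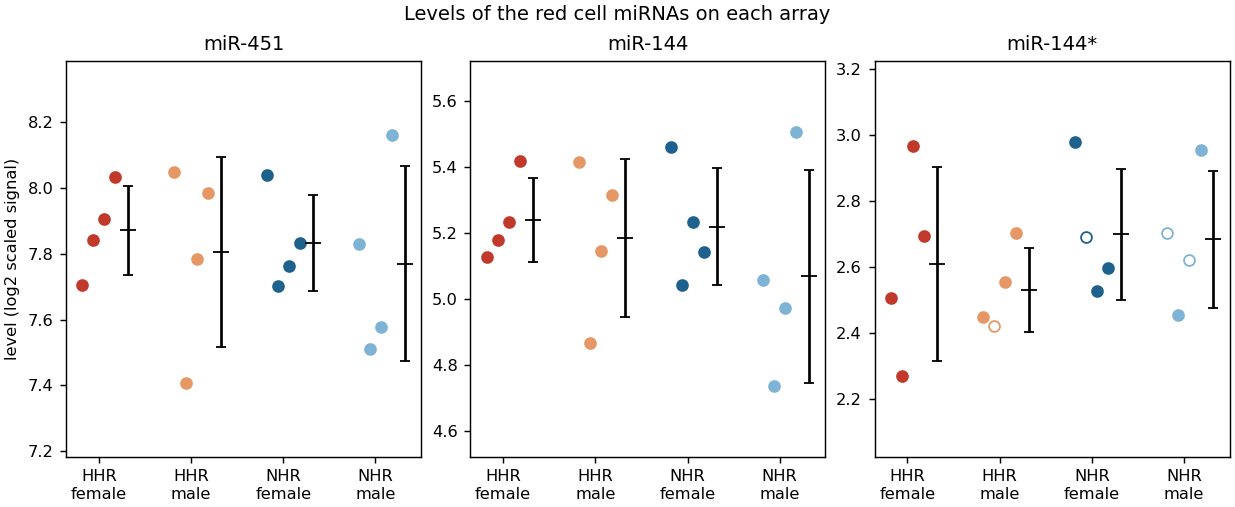
Level (log2 scaled signal, vertical axis, with a separate range for each miRNA) of miR-451, miR-144 and miR-144* on each of the 16 arrays by strain and sex; filled points were called detected and open points were not, the short horizontal line is the group mean, and the bar is ± 1 SD (n = 4). The 4 groups overlap for every miRNA, and HHR male 2 and NHR male 4 hold the lowest and highest miR-451 levels.

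The sexes were compared in the same fit. In females the strain difference was 0.037 ± 0.154 (SE) for miR-451, 0.020 ± 0.154 for miR-144 and -0.090 ± 0.145 for miR-144*, 0 of 3 called against 45.1% of all tested miRNAs. In males it was 0.036 ± 0.154, 0.117 ± 0.154 and -0.153 ± 0.145, again 0 of 3 called, against 20.6%. The test of the difference between these strain effects (females minus males) gave 0.001 ± 0.218 for miR-451, -0.097 ± 0.217 for miR-144 and 0.063 ± 0.205 for miR-144*, with limma adjusted p of 0.954 or more.

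Females minus males, over both strains, miR-451 differed by 0.064 ± 0.109 (SE), miR-144 by 0.102 ± 0.109 and miR-144* by 0.046 ± 0.103, each with a limma adjusted p of 0.970. Neither sex (0 of 233 called by limma, 23 at an unadjusted p under 0.05) nor the interaction (0 of 233, 9 unadjusted) gave a call for any tested miRNA. The spread of miR-451 between animals was 0.14 (SD, n = 4) in HHR females and 0.15 in NHR females, and 0.29 in HHR males and 0.30 in NHR males. Whether the males vary more was not tested.

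The strain differences depended on how the signals were processed. For miR-451 the difference stayed between 0.0071 and 0.376 over the scalings, normexp background correction and the authors' deposited values. miR-144 was 0.117 in the authors' deposited values and -0.138 after normexp correction, which adds a constant to the signals. The cause of this change was not tested. miR-144* was -0.252 after normexp correction (limma adjusted p = 0.0279) and 0.012 in the authors' deposited values.

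**Figure D2:**
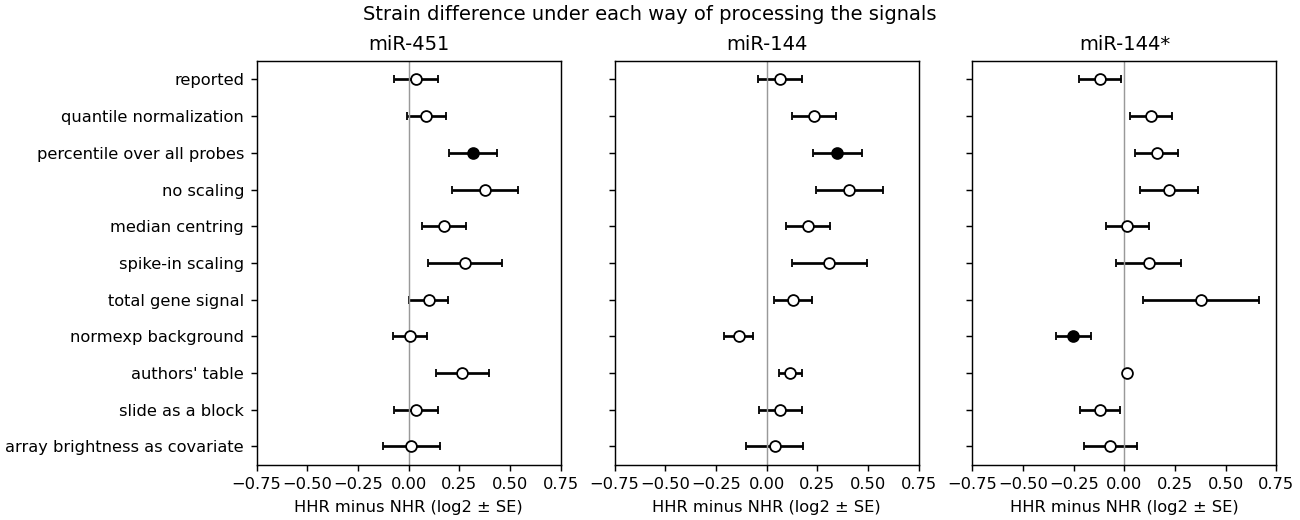
Difference HHR minus NHR (log2, horizontal axis) of each miRNA under each way of processing the signals (rows), with bars of ± 1 SE over 16 arrays; filled points have a limma adjusted p under 0.05. The filled points are miR-451 and miR-144 with the percentile over all probes, and miR-144* after normexp background correction, where it is negative.

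Each miRNA was read by 2 probes, which were compared with each other. The 2 probes of miR-451 followed each other across the 16 arrays (r = 0.987), and their 10 spots on an array varied by a median of 2.77% and 3.70% (CV). The 2 probes of miR-144 also followed each other (r = 0.931), with spot CVs of 5.95% and, for the dimmer one, 17.5%; the dimmer probe was well above background on 9 arrays. The 2 probes of miR-144* did not (r = 0.061): 1 was well above background on no array and the other on 2, with a spot CV of 20.4%. No spot was saturated. The level of miR-144* averages both probes, and with the brighter one alone its strain difference was 0.013 in place of -0.121.

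miR-451 and miR-144 varied between animals of the same group more than most miRNAs. Over the 16 arrays the highest level of miR-451 was 1.69 times the lowest, and that of miR-144 was 1.71 times. The SD within groups was 0.229 for each, against a median of 0.0872 over the 186 miRNAs detected on every array, where they ranked 24 and 25 from the largest. miR-16, an abundant miRNA of many tissues that red cells also carry, had an SD of 0.0506, and miR-23a, often used as a sign of red cell content when set against miR-451, 0.0432. The rank depends on the processing: in the authors' deposited values miR-451 ranked 2 and miR-144 ranked 88, after normexp correction 34 and 77, and with the total gene signal 40 and 43.

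**Figure D3:**
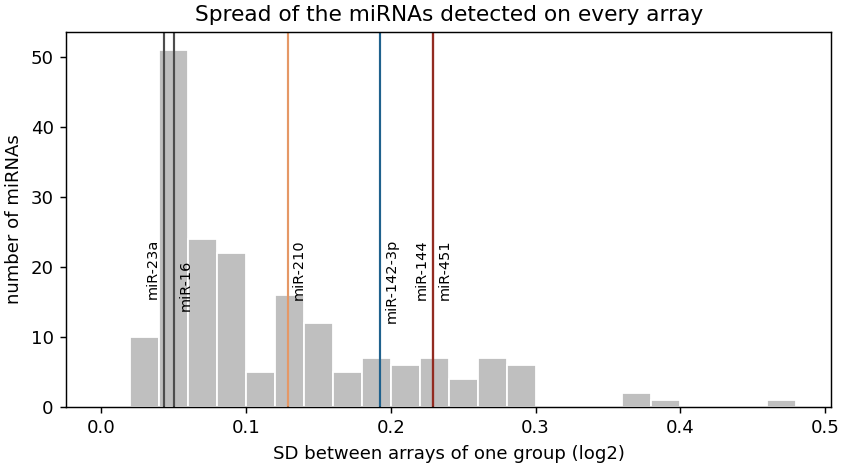
Histogram of the SD between arrays of one group (log2, horizontal axis) for the 186 miRNAs detected on all 16 arrays (number of miRNAs, vertical axis), with lines at 6 named miRNAs. miR-451 and miR-144 lie together at 0.229, to the right of most miRNAs, and miR-16 and miR-23a lie among the least variable.

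The same animals were high for both miR-451 and miR-144. Across the 16 arrays their levels correlated at Pearson r = 0.947 and Spearman rho = 0.926, each with a permutation p of 1e-05, the smallest that 100000 resamples can give (adjusted p = 3e-05 over the 3 pairs tested). Without HHR male 2 and NHR male 4, the arrays farthest from the median of miR-451, r was 0.939. The relation held inside each strain, at r = 0.985 over 8 HHR arrays (exact permutation p = 4.96e-05) and 0.943 over 8 NHR arrays (exact permutation p = 9.18e-04). It also held on each of the 2 slides, at 0.936 on slide 1 (exact permutation p = 0.0028) and 0.960 on slide 2 (exact permutation p = 5.95e-04). After the 4 group means were taken away it was 0.958. It was weaker after normexp correction and no longer passed (r = 0.519, permutation p = 0.0399, adjusted 0.0599). With the group means also taken away, r was 0.604 there.

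miR-144*, from the same hairpin as miR-144, followed them less closely. Its correlation with miR-451 was r = 0.546 (permutation p = 0.0287, adjusted 0.043) and rho = 0.476 (permutation p = 0.0641). It fell to r = 0.366 without HHR male 2 and NHR male 4. After the group means were taken away it was r = 0.599 (adjusted permutation p = 0.0146) and rho = 0.676, and r = 0.531 without those animals. With miR-144 it was r = 0.508 (adjusted permutation p = 0.0453) and rho = 0.447 (permutation p = 0.0834), and r = 0.349 without NHR male 2 and NHR male 4. Leaving out single arrays ended each call for 9 of the 16 arrays: HHR female 1 and 4, HHR male 2, 3 and 4, NHR female 1 and 4, and NHR male 2 and 4, with r down to 0.443 and 0.406 without NHR male 4. Within HHR the values were 0.365 and 0.335, and within NHR 0.873 and 0.833. With the brightest probe alone, an alternative chosen after seeing the data, they rose to 0.762 and 0.786.

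Differences taken within an array do not depend on most scalings. miR-451 minus miR-144 was 2.63 ± 0.046 (SD, n = 8) in HHR and 2.66 ± 0.088 (SD, n = 8) in NHR, and over all 16 arrays its SD was 0.070, against 0.21 for miR-451 and 0.22 for miR-144. The SD of this difference was 0.168 in the authors' deposited values and 0.156 after normexp correction, where the within-group SD of miR-144 alone was 0.120 and 0.146. As probes differ in brightness, the value itself is no ratio of amounts. The strains differed by -0.032 (two-sided exact permutation p = 0.378, adjusted p = 0.378 over 4 such differences). miR-451 minus miR-23a was 0.169 higher in HHR (exact permutation p = 0.122, adjusted 0.243) and miR-451 minus miR-16 was 0.143 higher (exact permutation p = 0.213, adjusted 0.283). miR-144 minus miR-144* was 0.190 higher (exact permutation p = 0.068, adjusted 0.243). None of the 4 passed.

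Among the 232 other tested miRNAs, 3 followed miR-451 with r above 0.8 once group means were taken away: miR-144 (0.958), miR-142-3p (0.893) and miR-210 (0.834). The next was at 0.625 and the median of all was 0.067. The miRNAs of an array share its RNA, labelling and scaling, and these correlations over 16 arrays are descriptions. miR-142-3p is a miRNA of white blood cells and platelets, and miR-210 is induced by low oxygen through HIF and is also present in red cells; both are shown with their seeds to make plain that they share none with miR-451 or miR-144.
miR-142-3p: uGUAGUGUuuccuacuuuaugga
miR-210: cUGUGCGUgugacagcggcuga
miR-142-3p lies on the plus strand of chromosome 10 at chr10:73055155-73055177, and miR-210 on the minus strand of chromosome 1 at chr1:205755946-205755967 (GRCr8).

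The level of miR-142-3p was 4.95, 4.996, 5.07 and 5.21 in HHR females, and 5.24, 4.73, 5.06 and 5.18 in HHR males. It was 5.42, 5.02, 5.11 and 5.28 in NHR females, and 5.33, 4.82, 5.04 and 5.26 in NHR males. HHR male 2 and NHR male 2 were the lowest of their strains, as they were for miR-451. Its r with miR-451 was 0.980 within HHR and 0.815 within NHR, ranged from 0.843 to 0.944 when single arrays were left out, and was 0.459 after normexp correction. miR-142-3p did not pass the strain test (-0.11 ± 0.092 SE, limma adjusted p = 0.318). Its difference was positive under 5 of the 6 scalings, up to 0.231 and without a call, and was called lower after normexp correction (-0.192, limma adjusted p = 0.0348).

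miR-210 was 7.81, 7.78, 7.79 and 7.88 in HHR females, and 7.78, 7.60, 7.72 and 7.71 in HHR males. It was 8.24, 8.10, 8.09 and 8.19 in NHR females, and 8.16, 7.99, 8.13 and 8.53 in NHR males. Every NHR array lay above every HHR array, and NHR male 4, highest for miR-451, was highest here too. These levels are for the reported scaling only, and how many of all tested miRNAs separate the strains in this way was not counted. miR-210 was lower in HHR by -0.42 ± 0.062 (SE, limma adjusted p = 1.28e-04). The direction was the same under all 6 scalings, main included, and the call was made under 3 of them. In the authors' deposited values the difference of miR-210 was -0.077, without a call (limma adjusted p = 0.624). Its r with miR-451 was below 0.8 under quantile normalization (0.554), with the total gene signal (0.746) and for levels within HHR (0.694).

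Below these 3, the miRNAs most like miR-451 were miR-208b-3p (0.625), miR-542-3p (0.604), miR-144* (0.599), miR-29c (0.577), miR-352 (0.563), miR-126* (0.537) and miR-450a (0.507). The least alike were miR-532-3p (-0.677), miR-466b-2* (-0.541, detected on 4 arrays) and miR-421* (-0.511). miR-101a and miR-101b, which resemble miR-144 in sequence, had an r with miR-451 of 0.129 (rank 94 of 232) and 0.442 (rank 13). Their correlation with miR-144 itself is not given here. Other blood miRNAs had low values over all arrays, which were not stable: miR-223, of neutrophils and platelets, was at -0.137, miR-150, of lymphocytes, at 0.173, miR-146a, of immune cells, at -0.084, and miR-16 at -0.030. Their sign differed between the slides, at 0.318 on slide 1 and -0.634 on slide 2 for miR-223, 0.587 and -0.602 for miR-150, and 0.582 and -0.756 for miR-16. Leaving out 1 array moved miR-223 between -0.443 and 0.167, and miR-16 between -0.220 and 0.474. The value of miR-16 was 0.747 without scaling, 0.815 with spike-in scaling and 0.793 in the authors' deposited values, and that of miR-223 was 0.386, 0.674 and 0.502.

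**Figure D4:**
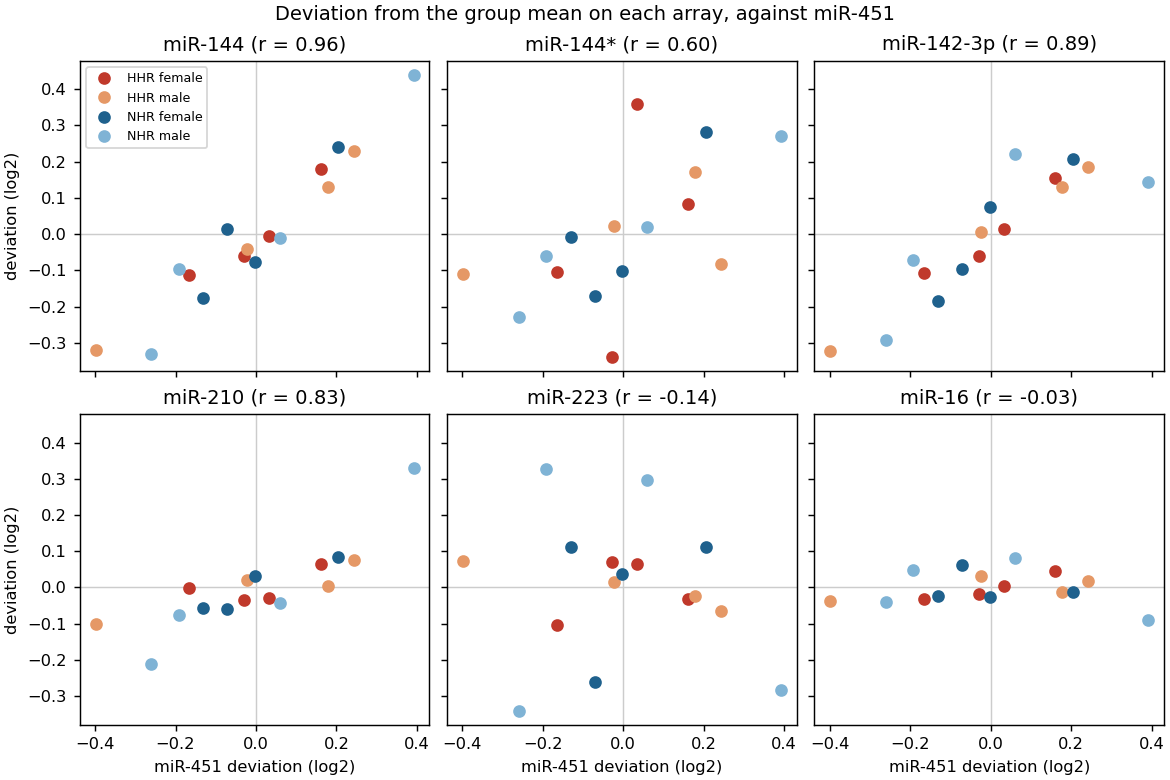
Deviation from the group mean (log2, vertical axis) of 6 miRNAs against that of miR-451 (log2, horizontal axis), 1 point per array, coloured by strain and sex, with Pearson r over 16 arrays in each title. The points of miR-144 and miR-142-3p rise along a line, those of miR-210 rise less steeply, and miR-223 and miR-16 show no such line.

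Other miRNAs of blood cells were read from lists, chosen with earlier results of these data known. Of 12 miRNAs abundant in red cells, 7 were tested, 4 (miR-96, miR-182, miR-183 and miR-363) were detected on no array, and miR-191 on 1. Of the 7, 0 were called higher and 4 lower in HHR, while of all tested miRNAs 54.5% were called and 106 of 233 were lower. The median difference of the 7 was -0.068 against -0.11 over all tested miRNAs. With the percentile over all probes, 6 of the 7 were called higher and 0 lower. The calls were miR-210 (above), miR-22 (-0.17, adjusted p = 0.00132), miR-16 (-0.11, adjusted p = 0.00687) and miR-107, all by limma. miR-22, miR-16 and miR-107 turned positive under 3, 4 and 4 of the 6 scalings, so no direction can be given for the list. Its summed level was 11.97 to 12.03 in HHR and 12.03 to 12.17 in NHR (log2) (miR-16, miR-22 and miR-107 are also expressed by heart cells).

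Of the 6 miRNAs that fall as red cells mature, 4 were tested, 3 were lower in HHR and the median was -0.30. They were miR-150 (-0.53, adjusted p = 1.05e-07), miR-24 (-0.13, adjusted p = 0.00117) and miR-223 (-0.47, adjusted p = 0.00152), while miR-221 was at 0.197 without a call (limma adjusted p = 0.0780). Over all tested miRNAs, 54.5% were called and 106 of 233 were lower. The list had no settled direction: with the percentile over all probes 2 were called higher and 1 lower (median -0.020), and without scaling 1 was higher and 0 lower (median 0.040). miR-24 was positive under 5 of the 6 scalings. miR-221 was called higher under 5 of the 6 scalings, the reported one being the exception. It was lower after normexp correction (-0.225, limma adjusted p = 0.0392), as were 163 of all 233 tested miRNAs. miR-222 was detected on no array.

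Of the 6 miRNAs of white blood cells and platelets, 4 were tested and 3 were called lower in HHR by limma, miR-150 and miR-223 (which both lists hold) and miR-146a (-0.30, adjusted p = 1.17e-04); the median was -0.38. That count stands beside 54.5% of all tested miRNAs called and 106 of 233 lower. The negative sign held under all 6 scalings for miR-150 and miR-223 and under 5 for miR-146a, but limma called them lower under only 4, 3 and 3 of the 6. Of the list, 3 were called lower with quantile normalization and with median centring, 1 with the percentile over all probes, and 0 without scaling or with spike-in scaling. In the authors' deposited values none of the 3 passed (limma adjusted p = 0.207 for miR-150, 0.163 for miR-223 and 0.935 for miR-146a). The summed level of the list was 7.06 to 7.23 in HHR and 7.33 to 7.67 in NHR, without overlap. miR-150 was 4.78 to 5.08 in HHR (median 4.94) and 5.32 to 5.55 in NHR (median 5.47), and the strains did not overlap. These ranges are for the reported scaling only. For the list and for miR-150, the share of all tested miRNAs that separate likewise was not counted. miR-223 was 4.95 to 5.21 in HHR (median 5.12) and 5.19 to 5.86 in NHR (median 5.67); within NHR it was 5.75 ± 0.097 (SD) on the 5 dim arrays and 5.26 ± 0.069 (SD) on the 3 brighter ones. On the same arrays miR-451 was 7.80 ± 0.17 and 7.81 ± 0.33. The part of array brightness in the miR-223 difference was not tested.

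**Figure D5:**
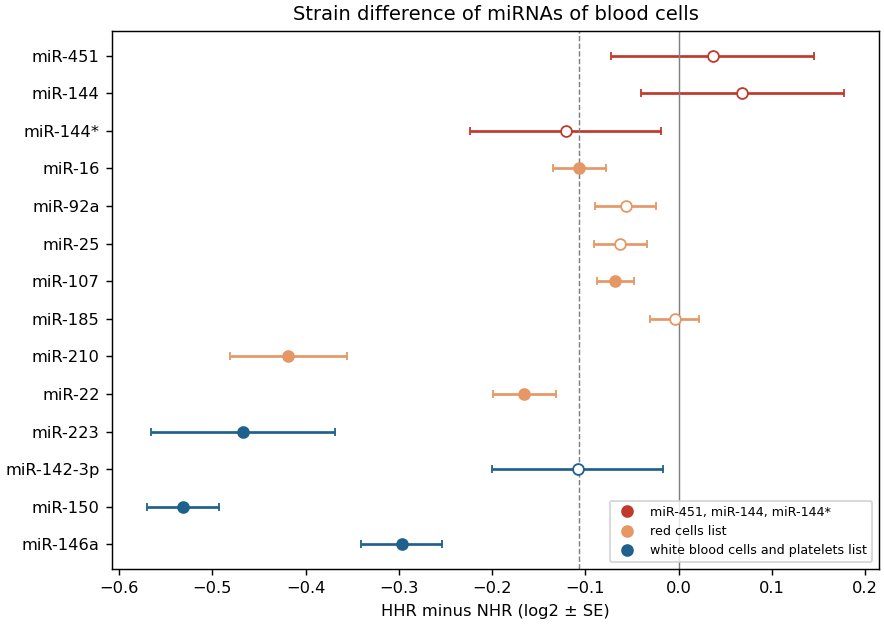
Difference HHR minus NHR (log2, horizontal axis) of miR-451, miR-144 and miR-144* and of the tested miRNAs of the red cell list and the white blood cell and platelet list, with bars of ± 1 SE over 16 arrays; filled points have a limma adjusted p under 0.05 and the dashed line is the median of all 233 tested miRNAs. miR-451 and miR-144 lie just right of 0, while miR-150, miR-223, miR-210 and miR-146a lie to the left of the dashed line.

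For the tissue itself, 4 of 6 tested cardiac muscle miRNAs, 2 of 2 of endothelium and 2 of 2 of smooth muscle were lower in HHR, with medians of -0.14, -0.21 and -0.13 against -0.11 over all tested miRNAs. Over all tested miRNAs 106 of 233 were lower. With the percentile over all probes the medians were 0.14, 0.07 and 0.15, with 4 cardiac, 0 endothelial and 2 smooth muscle miRNAs called higher and 0 called lower, so these lists have no settled direction. miR-192, found in liver and gut, was lower in HHR by -0.82 (limma adjusted p = 3.45e-07) and remained negative under all 6 scalings. Its r with miR-451 was -0.250. In all 7 lists, as reported, miR-210 and miR-142-3p were the only tested members with an r above 0.8 with miR-451.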

How the data were processed

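Total RNA from 16 hearts was hybridised to 1-colour Agilent rat miRNA arrays (Release 16.0). Spot intensities were background-subtracted by the authors' scanner software, Agilent Feature Extraction 10.7.3.1 (annotation rn4), per the file headers, and detection and background flags are deposited with them. A deposited table holds the authors' log2 values, with column medians near 6.13 to 6.15; how it was made is not stated beyond limma, which the submitters' processing notes name, and it served as an alternative.

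Spots were averaged per probe without outlier spots. Each array was scaled to the 75th percentile of 258 probes that every array measured well above background. Probes of a miRNA were averaged, floored at 1.88 (log2 0.91) and put on the log2 scale. The 233 miRNAs detected on at least 4 arrays were fitted with 4 group means in limma 3.58.1 (R 4.3.3; lmFit, eBayes), with Benjamini-Hochberg adjustment over all and a threshold of 0.05. The fit was tested on simulated data. The number of arrays limits the precision.

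Named miRNAs were the 4 searched, the 8 with the highest and 3 with the lowest correlation with miR-451, up to 3 called miRNAs of each list with the smallest adjusted p, and miR-16 and miR-23a; others were chosen after their values were seen. Members and lists (red cells, fall in red cell maturation, white blood cells and platelets, cardiac muscle, endothelium, smooth muscle, liver) were chosen with earlier results of these data known. Star names were matched to RefSeq arms (miR-144 to the 3p strand, miR-144* to the 5p strand). Replicate numbers were not taken to pair the animals. Each group lay on both slides.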

Additional observations from a re-analysis of the deposited data

How the results depend on the processing

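The strain difference of miR-451 and of miR-144 kept its direction and its side of the threshold under 20 of 22 alternatives each, and that of miR-144* under 11 of 21. Several alternatives could not move the estimate. With another floor or detection filter, a trended and robust variance, a slide or replicate term, or no sex term, miR-451 stayed at 0.037. miR-144 stayed at 0.069 under the same alternatives. These test only the call, so the counts do not show that the direction is steady. With the percentile over all probes miR-451 was 0.317 and miR-144 0.349, both called, and miR-144* 0.159. After normexp correction (offset 50, on the median signal) miR-144 was -0.138 and miR-144* -0.252, the latter called. miR-144* was positive without a call with the total gene signal (0.377), quantile normalization (0.132), no scaling (0.218), median centring (0.015), spike-in scaling (0.119), the authors' deposited table (0.012), the brightest probe alone (0.013) and within slide 2 (0.053). miR-451 was -0.019 within slide 1. The cause was not tested. Leaving out 1 array gave -0.0066 to 0.103 for miR-451, 0.013 to 0.142 for miR-144 and -0.181 to -0.065 for miR-144*.

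miRNAs called for strain numbered 127, and 70 with the total gene signal, 48 without scaling, 25 with spike-in scaling, 15 in the authors' deposited table, 37 within slide 1, 47 within slide 2 and 74 with array brightness as a covariate (106 to 128 when 1 array was left out).

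The correlation of miR-451 with miR-144 was 0.519 after normexp correction and lost its call there; over single arrays left out it was 0.936 to 0.960. That of miR-451 with miR-144* lost its call within HHR (0.365), slide 1 (0.398) and slide 2 (0.647), after normexp correction (0.070), with the mean of log2 probes (0.441) and with a floor 4 times higher (0.477), and was 0.443 to 0.662 over single arrays left out. That of miR-144 with miR-144* lost it within HHR (0.335), slide 1 (0.388) and slide 2 (0.549), with the mean of log2 probes (0.342) and the higher floor (0.489), and was 0.406 to 0.622.

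miR-451 minus miR-144 turned positive after normexp correction (0.146), in the authors' deposited table (0.148) and within slide 2 (0.028); miR-144 minus miR-144* turned negative with the total gene signal (-0.246). None of these passed.

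The replicate block, with the labels' replicate number as a term, left miR-451 at 0.037 (limma adjusted p = 0.709) and changed no call of the 3 miRNAs. It lowered the within-group SD from 0.229 to 0.178 for both miR-451 and miR-144. The labels do not say what a number marks. Of 24 same-numbered pairs, 20 correlated above 0 and 16 above 0.1, and 6 of 16 arrays correlated best with their own number. Not every pair deviated together, and the numbers were not used as pairs. Correlations of pairs with different numbers are not given here. Numbers 1 and 2 lay on slide 1 and numbers 3 and 4 on slide 2, so the replicate term also carries the slide. A slide term alone left the within-group SD at 0.229 for miR-451 and 0.225 for miR-144. What the replicate number stands for was not tested. Low signal over background limits miR-144* most.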
